A study of Rattus norvegicus with 311 samples.

Results

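Expression was followed for 9 target genes of NRF2 that supply glutathione and remove oxidants: Slc7a11, Gclc, Gclm, Gsr, Nqo1, Srxn1, Txnrd1, Osgin1 and Hmox1. Each was taken from the count table by its symbol, and each was measured by 1 probe, so the 9 genes held 9 of the 22253 probes of the whole table. The cells were primary hepatocytes of male Sprague Dawley rats, kept as a monoculture or as a co-culture with liver non-parenchymal cells. Every culture received a compound or the vehicle for 24 h before it was lysed on day 1, 3 or 7 after plating, and RNA was read with TempO-Seq, in which a pair of detector oligos per target is ligated on the RNA, amplified and counted. The compounds were phenobarbital at 0.1, 1 and 10 mM, ketoconazole at 1, 10 and 30 µM, GW7647 at 0.01, 0.1 and 1 µM and gemfibrozil at 10, 100 and 1000 µM, and the reference was the untreated vehicle control of the same culture and day.

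There were 155 libraries of co-cultures and 156 of monocultures, in 78 groups of 3 to 5 libraries. Cells came from a commercial supplier, and the labels name biological replicates and do not say what was separate between them; p-values therefore cover only how far libraries of a group varied, and that variation may be technical. Levels are CPM, each count divided by its library total after scaling. Fold changes are on the log2 scale from edgeR's quasi-likelihood test, with a standard error (SE) and a p-value adjusted over all genes tested, and each is the mean of the differences in co-culture and in monoculture. A gene was called when that adjusted p was under 0.05. The SE is not an output of the test and was computed as the absolute fold change over the square root of its F statistic.

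NRF2, encoded by Nfe2l2, is a transcription factor that the adaptor KEAP1 holds at a low level in resting cells by steering it to the proteasome. Electrophiles and oxidants disable that control, and NRF2 then binds, with a small MAF partner, to antioxidant response elements in its target genes, while BACH1 competes for the same elements. The liver relies on this pathway to make glutathione and to reduce quinones and peroxides during drug metabolism. In these 9 genes, Slc7a11 imports cystine, Gclc and Gclm are the catalytic and modifier subunits of the ligase that limits glutathione synthesis, and Gsr reduces oxidised glutathione. Nqo1 reduces quinones, Srxn1 repairs overoxidised peroxiredoxins, Txnrd1 reduces thioredoxin, Osgin1 is an oxidative stress-induced growth inhibitor, and Hmox1 degrades haem.

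Promoter windows of these genes were searched for the core letters of the antioxidant response element, and the windows that hold them are shown. RefSeq windows (GRCr8, 250 bases before to 50 after the gene start) were matched for 7 of the 9 genes, giving 8 windows because Txnrd1 has more than one. The core letters TGACNNNGC, searched on both strands, were found in 2 of the 8 windows and in 12.1% of 33469 rat promoter windows. The match in Gclm lies in chr2:213031885-213032184 (plus strand) and that in Txnrd1 in chr7:22755855-22756154 (minus strand). Capitals mark the match, which in both reads on the antisense strand.
Gclm: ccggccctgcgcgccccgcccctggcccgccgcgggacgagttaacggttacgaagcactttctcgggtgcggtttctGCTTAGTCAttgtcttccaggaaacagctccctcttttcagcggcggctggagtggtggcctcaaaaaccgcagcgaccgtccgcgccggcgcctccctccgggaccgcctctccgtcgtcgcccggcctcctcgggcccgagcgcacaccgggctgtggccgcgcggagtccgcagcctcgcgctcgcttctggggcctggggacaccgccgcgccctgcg
Txnrd1: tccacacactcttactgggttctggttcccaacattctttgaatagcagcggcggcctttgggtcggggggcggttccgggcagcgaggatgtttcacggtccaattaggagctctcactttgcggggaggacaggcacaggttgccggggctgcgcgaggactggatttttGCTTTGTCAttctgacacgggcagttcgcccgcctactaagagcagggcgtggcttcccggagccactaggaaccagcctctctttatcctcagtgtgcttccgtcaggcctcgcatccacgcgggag
The windows of Slc7a11, Gclc, Nqo1, Srxn1 and Osgin1 and the other window of Txnrd1 do not hold these letters. The letters TGATGCAA, a core of the amino-acid response element that ATF4 binds, were in none of the 8 windows and in 0.795% of all windows. A match or its absence says only which letters are in the window.

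The smallest library held 412414 counts, the largest 12272575 and the median library 6054414. Summed CPM of 14 hepatocyte marker probes in vehicle libraries had a median of 53694 on day 1, 46191 on day 3 and 12992 on day 7 (n = 8 each), so hepatocyte transcripts were present on every day and lowest on day 7. Over the same days the median of 13 stellate and mesenchymal probes was 292, 806 and 5098 CPM, and that of 16 macrophage probes 148, 262 and 849 CPM. In these bulk libraries fewer cells of a type and less RNA per cell cannot be told apart. Several libraries stood apart. Replicates are named here by the plate in their label; on day 3 the 9 libraries of plate 9, all of gemfibrozil or GW7647 and none of vehicle, had Spearman correlations of 0.588 to 0.664 with the day 1 vehicle profile and 0.456 to 0.532 with that of day 3 (5270 genes), while the day 3 vehicle libraries reached 0.934 to 0.968 with their own day. On day 7 profiles matched labels poorly on every plate: of 48 phenobarbital and ketoconazole libraries, 12 were most like the group of their own label, at 2 to 5 of 12 a plate. Most of these libraries were of lower doses, which differed little from vehicle on day 7. Of 13707 genes tested, edgeR called 0 with phenobarbital 0.1 and 1 mM or ketoconazole 1 µM, and 3 with ketoconazole 10 µM. Other days were not matched in this way, and whether labels were wrong was not tested. The plate 1 co-culture library labelled phenobarbital 10 mM was most like 1 mM (r = 0.765, against 0.0884 with its own label), and the one labelled 1 mM was most like 10 mM (0.680, against 0.348). The plate 5 libraries labelled phenobarbital 10 mM were also most like 1 mM (0.745 against 0.452 in monoculture, 0.778 against 0.525 in co-culture). The plate 3 libraries labelled phenobarbital 10 mM were most like ketoconazole 10 µM (0.698 against 0.0880 in monoculture, 0.724 against 0.170 in co-culture). The co-culture libraries of plates 1 and 7 labelled ketoconazole 30 µM were most like phenobarbital 1 mM (0.663 against -0.282, and 0.724 against -0.215). The plate 1 monoculture library labelled ketoconazole 30 µM was the one with 412414 counts. In 33 monoculture libraries that the sample description and column name give as phenobarbital, the compound field names ketoconazole, and 3 further libraries have conflicting dose labels. Labels were kept as the descriptions give them, and where a call of the 9 genes at a highest dose was lost without a plate, the value without it is given. Counts over other gene lists, the regulators of NRF2 and DESeq2's test were not refitted without a plate.

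In vehicle-treated cells on day 7, 6 of the 9 genes were lower than on day 1 and none was higher, against 16.5% of 11823 genes tested that were lower. The median change of the 9 was -1.35 on the log2 scale, and that of all genes tested was 0.23. On day 3, 4 of the 9 were lower than on day 1, against 10.4% of all genes tested. Between day 7 and day 3, 2 were higher and 1 lower, against 26.2% and 14.6% of all genes tested.

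Gsr, which regenerates reduced glutathione, had 21.0, 16.6, 20.7 and 18.6 CPM in day 7 co-cultures and 23.4, 21.2, 10.4 and 20.7 CPM in day 7 monocultures. On day 1 it had 30.1, 49.5, 82.8 and 42.1 CPM in co-cultures and 67.3, 42.2, 74.1 and 74.8 CPM in monocultures. The days do not overlap, and Gsr fell by 1.48 ± 0.24 (SE; adjusted p = 3.65e-05). It was already lower on day 3, at 22.6 ± 9.57 CPM against 57.8 ± 19.3 CPM on day 1 (SD, n = 8 each; log2 change -1.33 ± 0.24, adjusted p = 4.72e-04). Gclc averaged 77.9 ± 18.6 CPM on day 7 and 213 ± 54.7 CPM on day 1 (SD, n = 8 each), with every day 7 library (52.4 to 106 CPM) below every day 1 library (126 to 268 CPM). Its change was -1.35 ± 0.23 (adjusted p = 8.33e-05). On day 3 Gclc averaged 116 ± 41.5 CPM, a change of -0.80 ± 0.23 from day 1 (adjusted p = 0.0168) that was lost without plate 3 (adjusted p = 0.0893) or plate 5 (0.110). Gclm, the other subunit, averaged 5.81 ± 5.31 CPM on day 7 and 16.1 ± 6.89 CPM on day 1. Its groups overlap, its change of -1.36 ± 0.46 was called (adjusted p = 0.0201), and the call was lost without plate 1 (0.0977) or plate 5 (0.108).

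Srxn1 had the largest day 7 change of the 9, at 2.36, 2.68, 6.94 and 8.86 CPM in day 7 co-cultures and 4.39, 1.41, 4.01 and 8.89 CPM in day 7 monocultures. Its day 1 libraries had 16.7, 29.2, 26.1 and 48.9 CPM in co-culture and 16.5, 11.6, 31.7 and 60.0 CPM in monoculture, all above every day 7 library. The change was -2.49 ± 0.52 (adjusted p = 4.91e-04). Its day 3 change from day 1, -1.34, missed the threshold (adjusted p = 0.0557) and passed with plate as a block (-1.57, adjusted p = 9.65e-04). Osgin1 averaged 307 ± 47.9 CPM on day 1, 309 ± 62.6 CPM on day 3 and 153 ± 67.0 CPM on day 7, and it was lower on day 7 than on either earlier day (change from day 1 -0.90 ± 0.24, adjusted p = 0.00418).

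Hmox1 had its lowest values on day 3. The day 3 vehicle libraries had 0, 3.86, 5.62 and 2.27 CPM in co-culture and 0, 3.80, 6.96 and 5.99 CPM in monoculture, whereas the day 1 libraries had 13.4, 41.0, 64.0 and 38.9 CPM in co-culture and 17.5, 23.8, 66.5 and 84.3 CPM in monoculture. Day 3 lies wholly below day 1, with a change of -3.53 ± 0.54 (adjusted p = 8.72e-05). On day 7 Hmox1 averaged 13.8 ± 6.61 CPM, above day 3 (1.95 ± 0.52, adjusted p = 0.00489) and below day 1 (-1.58 ± 0.48, adjusted p = 0.0105). The call against day 1 was lost without plate 3 (0.0633) or plate 5 (0.0712). Slc7a11 averaged 2.51 ± 1.32 CPM on day 1, 1.02 ± 1.12 CPM on day 3 and 2.49 ± 1.30 CPM on day 7. Its day 7 rise over day 3, 1.58 ± 0.61, was called (adjusted p = 0.0423) but was lost without plate 1 (0.96, adjusted p = 0.289), plate 5 (1.29, 0.162) or plate 7 (1.84, 0.0777). Nqo1 was lower on day 3 than on day 1 (-1.09 ± 0.28, adjusted p = 0.00855), a call lost without plate 3 (0.0887) or plate 5 (0.105), and its day 7 difference from day 1, -0.43, was not called (adjusted p = 0.210). Txnrd1 differed from day 1 by -1.04 on day 3 (adjusted p = 0.0671) and -0.80 on day 7 (0.101), and neither was called. With plate as a block, 4 genes rather than 1 were lower on day 7 than on day 3: Osgin1, Gclc (-0.53, adjusted p = 0.0184), Gclm (-1.30, 0.00662) and Srxn1 (-0.97, 0.0188). The same block gave 3 genes rather than 2 higher, as Nqo1 passed (0.72, adjusted p = 0.0416, against 0.65 and 0.0676 without the block). The summed hepatocyte and mesenchymal probes given above move over the same days, and their part in these differences was not tested.

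**Figure D1:**
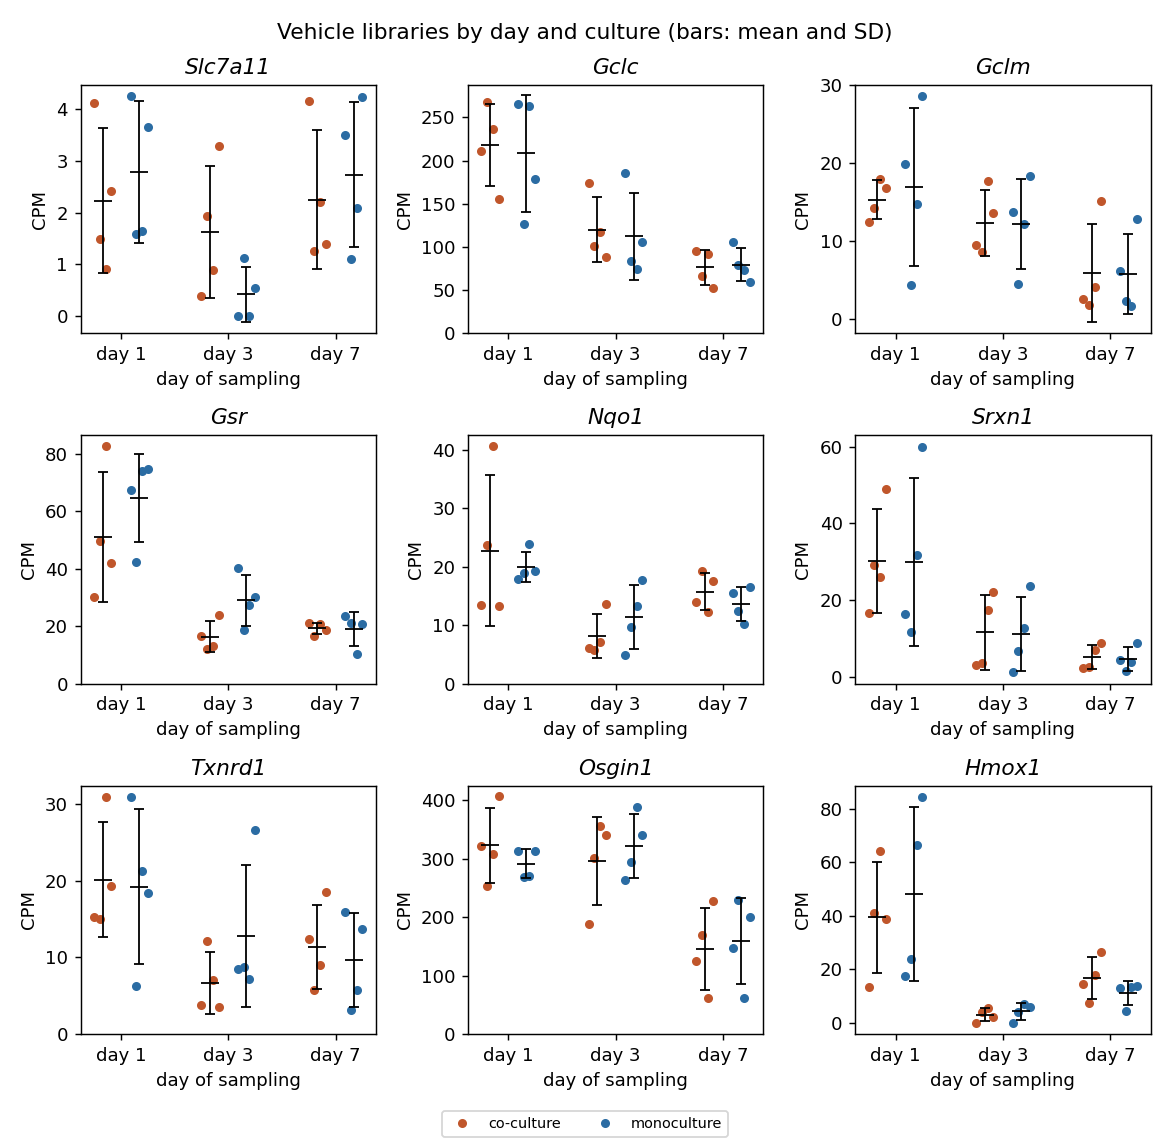
CPM of the 9 genes (y axes) in vehicle libraries on days 1, 3 and 7 (x axis), with one point per library, co-cultures and monocultures in separate columns, and bars for the mean and SD of 4 libraries. Gsr, Gclc and Srxn1 have every day 7 library below every day 1 library, and Hmox1 is lowest on day 3, between 0 and 6.96 CPM.

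Most calls came with phenobarbital, a barbiturate and a classic inducer of hepatic drug metabolism through the receptor CAR. At 10 mM the number of the 9 genes that were higher than vehicle was 2 on day 1, 4 on day 3 and 6 on day 7, against 9.26%, 5.11% and 2.81% of all genes tested. None was lower on any of these days, and all 9 had a positive change on each. The median change of the 9 was 0.43, 1.57 and 2.02 on days 1, 3 and 7, beside 0.08, 0.18 and 0.01 for all genes tested. All compounds of one day share the vehicle libraries of that day.

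Slc7a11, the cystine importer, rose most. Plate 3 holds vehicle libraries of day 3 but no phenobarbital library of that day. On day 3 the 10 mM libraries had 34.3, 19.4 and 44.5 CPM in co-culture and 27.3, 13 and 47.8 CPM in monoculture, and the vehicle libraries had 0.379, 1.93, 0.887 and 3.29 CPM in co-culture and 0, 1.12, 0 and 0.529 CPM in monoculture. No treated library overlaps a vehicle library, and the change was 5.15 ± 0.86 (adjusted p = 1.23e-05). On day 7 the treated co-cultures had 6.36, 71.6, 38.7 and 138 CPM for Slc7a11, with plate 1 lowest, and the treated monocultures had 22.6, 27.9, 22.9 and 102 CPM. Vehicle libraries had 4.17, 1.25, 2.20 and 1.39 CPM in co-culture and 3.51, 1.10, 2.08 and 4.25 CPM in monoculture, again all lower. The day 7 change was 4.38 ± 0.69 (adjusted p = 1.45e-05) and 5.00 without plate 1. On day 1 Slc7a11 averaged 6.60 ± 3.60 CPM with phenobarbital and 2.51 ± 1.32 CPM with vehicle (SD, n = 8 each), a change of 1.43 that missed the threshold (adjusted p = 0.0549) and passed with plate as a block (1.60, adjusted p = 0.00521).

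Srxn1, the sulfiredoxin, was higher on each day. On day 3 it averaged 74.5 ± 39.6 CPM in treated libraries (SD, n = 6) and 11.3 ± 8.99 CPM in vehicle libraries (SD, n = 8), and the lowest treated value, 37.7 CPM, lay above the highest vehicle value, 23.8 CPM. That change was 2.62 ± 0.70 (adjusted p = 0.00657), and was lost without plate 5 (2.85, adjusted p = 0.0662). On day 7 Srxn1 had 6.57, 150, 17 and 85.3 CPM in treated co-cultures and 20.3, 224, 19.9 and 54.1 CPM in treated monocultures, against at most 8.89 CPM with vehicle. The plate 3 libraries were far above the rest, only the plate 1 co-culture library reached into the vehicle range, and the change was 3.82 ± 0.65 (adjusted p = 4.75e-05). Without plate 3 it was 2.50 (adjusted p = 0.0806). The day 1 call (77.1 ± 58.8 against 30.1 ± 16.8 CPM; 1.38 ± 0.50, adjusted p = 0.0468) was lost without plate 1 (0.121) or plate 5 (0.409).

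Gclc rose on day 7, when treated co-cultures had 161, 465, 263 and 268 CPM and treated monocultures 383, 498, 329 and 222 CPM. Vehicle libraries lay between 52.4 and 106 CPM, below all of these. The change was 2.02 ± 0.32 (adjusted p = 1.42e-05), and the call held in all 9 alternative settings tried, as did that of Slc7a11. On day 3 the Gclc difference of 0.80 was not called (adjusted p = 0.158) and passed with plate as a block (0.92, adjusted p = 0.00242). Gclm and Gsr, the partners of Gclc in synthesis and recycling, were not called on any day by edgeR with all plates and no block. On day 7 Gclm averaged 13.3 ± 10.2 CPM with phenobarbital and 5.81 ± 5.31 CPM with vehicle (1.15, adjusted p = 0.176). Gsr averaged 36.7 ± 11.1 and 19.1 ± 4.03 CPM in the same libraries (0.90, adjusted p = 0.0596). Its treated libraries, 23.5 to 54.7 CPM, all lay above its vehicle libraries, 10.4 to 23.4 CPM, and it was called without plate 1 (0.96, adjusted p = 0.00668), when plate was blocked (0.91, 0.016) and by DESeq2 (0.94, 0.0271).

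Nqo1 and Txnrd1, which use NAD(P)H or NADPH to reduce quinones and thioredoxin, were called on day 7. Nqo1 had 25.3, 140, 43.2 and 86.4 CPM in treated co-cultures and 45.7, 130, 32.6 and 90.0 CPM in treated monocultures, all above the vehicle libraries at 10.3 to 19.3 CPM (2.30 ± 0.55, adjusted p = 0.00482). Txnrd1 had 22.8, 105, 18.0 and 98.9 CPM in treated co-cultures and 88.2, 176, 20.2 and 175 CPM in treated monocultures. Its vehicle libraries had 3.14 to 18.6 CPM, so 1 treated library, the co-culture of plate 5, fell within that range (2.97 ± 0.72, adjusted p = 0.00545). Both calls were lost without plate 3 or plate 7: Nqo1 was 1.89 without plate 3 (adjusted p = 0.163) and 2.28 without plate 7 (0.105), and Txnrd1 was 2.39 (0.209) and 2.92 (0.0863). On day 3 neither was called (Nqo1 1.32, adjusted p = 0.0925; Txnrd1 2.24, 0.0902). Without plate 9, which holds no phenobarbital library but enters the spread estimate of the day, both were (Nqo1 1.31 ± 0.47, adjusted p = 0.0390; Txnrd1 2.24 ± 0.59, 0.00433).

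Osgin1 was higher on each day. On day 3 it had 450, 1361 and 665 CPM in treated co-cultures and 612, 1604 and 884 CPM in treated monocultures, all above the vehicle libraries at 188 to 389 CPM (1.57 ± 0.30, adjusted p = 1.20e-04). On day 1 it averaged 472 ± 116 CPM with phenobarbital and 307 ± 47.9 CPM with vehicle (0.65 ± 0.19, adjusted p = 0.00932), a call lost without plate 5 (0.45, adjusted p = 0.244). On day 7 it averaged 354 ± 218 and 153 ± 67.0 CPM, with overlap. The day 7 call (1.18 ± 0.36, adjusted p = 0.0328) was lost without plate 1 (0.0539), plate 3 (0.336) or plate 7 (0.169), with DESeq2 size factors (0.0595) and without the filter on low counts (0.0504). Hmox1, the haem oxygenase, was called by edgeR on day 3, at 11.6, 86.3 and 45.0 CPM in treated co-cultures and 14.7, 72.5 and 36.0 CPM in treated monocultures. Every vehicle library lay below, at 0 to 6.96 CPM. The change of 3.61 ± 1.25 had an adjusted p of 0.0420, which was 0.00149 without plate 9 and missed the threshold without plate 1 (0.0787), plate 3 (0.0704), plate 5 (0.202), plate 7 (0.204) or the filter on low counts (0.0530). Leaving out plate 3 on day 3 removed vehicle libraries but no phenobarbital library. On day 7 Hmox1 averaged 43.0 ± 19.2 CPM with phenobarbital and 13.8 ± 6.61 CPM with vehicle, a difference of 1.65 that was not called (adjusted p = 0.0814), and was called without plate 1 (1.76, 0.0229), when plate was blocked (1.71, 0.0346) and by DESeq2 (1.73, 0.0401).

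Without plate 9, 6 of the 9 genes were higher on day 3, against 8.74% of all genes tested, and with plate as a block 7 were. Without plate 1, 7 of the 9 were higher on day 7, against 5.15% of all genes tested, and 8 were by DESeq2 or with plate as a block. Without plate 3 only 2 were, and without plate 7 only 3. The share of all genes called with the block, by DESeq2 or without plate 3 or 7 is not given here. At 0.1 and 1 mM none of the 9 was called on any day, and none of all genes tested was called either. Slc7a11 at 1 mM on day 3 averaged 5.16 ± 0.706 CPM in co-culture and 2.95 ± 1.75 CPM in monoculture (SD, n = 3 each), against 1.62 ± 1.28 and 0.411 ± 0.532 CPM with vehicle (SD, n = 4 each), which passed only before adjustment. In day 7 co-cultures at 1 mM the plate 1 library had 36.1 CPM of Slc7a11, and the other plates had 1.02, 2.92 and 7.43 CPM. Markers of other cell types were lower with 10 mM on day 7: summed cholangiocyte probes ran from 95.0 to 697 CPM (median 280) with phenobarbital and from 587 to 1947 CPM (median 1212) with vehicle, and mesenchymal probes from 330 to 5870 CPM (median 3003) and from 1604 to 21963 CPM (median 5098). Hepatocyte probes ran from 3174 to 19471 CPM (median 7737) with phenobarbital and from 3901 to 19164 CPM (median 12992) with vehicle. On day 3 hepatocyte probes ran from 6803 to 30309 CPM with phenobarbital 10 mM, all below vehicle at 34130 to 69192 CPM. Of the other markers, 2 sums also lay wholly below vehicle on day 3, cholangiocyte probes at 9.86 to 119 CPM against 301 to 1561 CPM and mesenchymal probes at 61.7 to 351 CPM against 390 to 1293 CPM. Macrophage probes (26.1 to 148 CPM against 66.6 to 685 CPM) and 11 endothelial probes (3.59 to 17.7 CPM against 8.64 to 110 CPM) overlapped vehicle. Their part in the results was not tested.

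**Figure D2:**
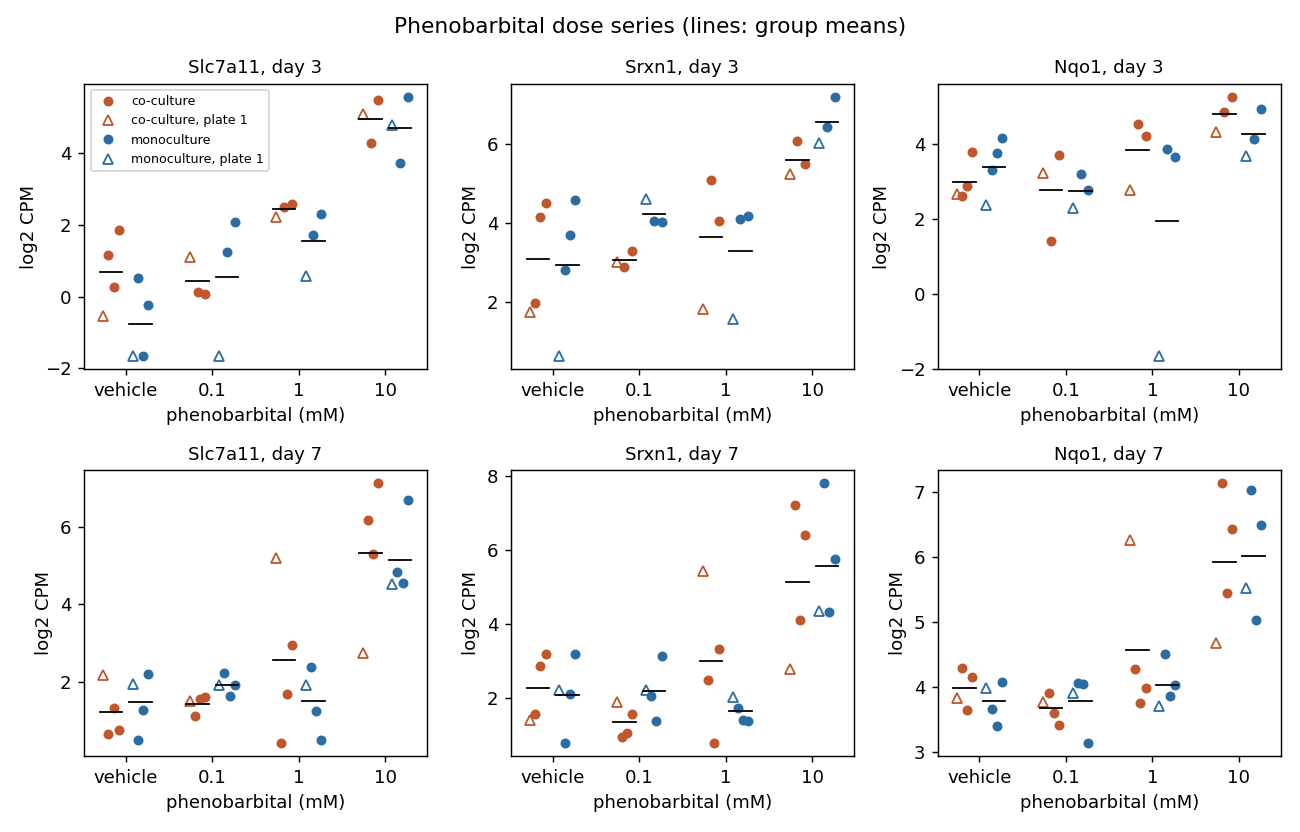
log2 CPM (y axes) of Slc7a11, Srxn1 and Nqo1 by phenobarbital dose in mM, with vehicle at the left, on day 3 (upper row) and day 7 (lower row); points are libraries, open triangles are plate 1 and lines are group means. Values rise at 10 mM, and on day 7 the plate 1 co-culture triangle is high at 1 mM (36.1 CPM of Slc7a11) and low at 10 mM (6.36 CPM).

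Ketoconazole, an antifungal azole known to block several cytochrome P450 enzymes, had 2 of the 9 genes called lower on day 1, 1 called higher on day 3 and 2 called higher on day 7. At 30 µM on day 1, 9.19% of all genes tested were lower, and none of the 9 was higher. Osgin1 had 97.3, 131, 135 and 175 CPM in treated co-cultures and 126, 131, 66.8 and 227 CPM in treated monocultures, below every vehicle library (254 to 408 CPM). Its change was -1.13 ± 0.19 (adjusted p = 5.77e-06), was called within each culture, and held in every alternative setting tried. Gclc averaged 125 ± 32.7 CPM with ketoconazole and 213 ± 54.7 CPM with vehicle (-0.73 ± 0.23, adjusted p = 0.0212), and was not called without plate 3 (0.0613), plate 5 (0.225) or plate 7 (0.0536).

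On day 3, 1 of the 9 genes was higher at 30 µM, against 1.14% of all genes tested. This was Slc7a11, with 11.4, 19.4, 6.19 and 7.48 CPM in treated co-cultures and 8.86, 12, 2.26 and 5.10 CPM in treated monocultures, where vehicle libraries had at most 3.29 CPM. Only the monoculture library of plate 5 reached the vehicle range, and the change was 3.34 ± 0.79 (adjusted p = 0.00669; without plate 5 0.123, without plate 7 0.0618). Without plate 9, Hmox1 was also called (2.78 ± 0.81, adjusted p = 0.0257), giving 2 of the 9 against 2.4% of all genes tested. Hmox1 averaged 25.1 ± 18.5 CPM with ketoconazole and 3.56 ± 2.64 CPM with vehicle. At the lowest doses of ketoconazole, gemfibrozil and GW7647, Hmox1 averaged 8.11, 7.96 and 10.8 CPM without plate 9, and at that of phenobarbital 1.67 CPM. In the same libraries Slc7a11 averaged 1.56 to 2.13 CPM, against 1.02 CPM with vehicle. With plate as a block, Slc7a11, Hmox1 and Nqo1 (1.24, adjusted p = 0.0173) were higher and Osgin1 was lower (-0.77, adjusted p = 0.00713); Osgin1 averaged 177 ± 22.4 CPM with ketoconazole and 309 ± 62.6 CPM with vehicle.

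On day 7, 2 of the 9 genes were higher at 30 µM, against 0.372% of all genes tested. Nqo1 had 28.5, 140, 60.3 and 59.4 CPM in treated co-cultures and 44.5, 196, 94.6 and 78.8 CPM in treated monocultures. All lay above its vehicle libraries, 10.3 to 19.3 CPM, and the change was 2.55 ± 0.56 (adjusted p = 0.0130). Slc7a11 had 3.72, 31.4, 15.8 and 8.15 CPM in treated co-cultures and 32.4, 25.1, 13 and 12.8 CPM in treated monocultures, against 1.10 to 4.25 CPM with vehicle. Only the plate 1 co-culture library overlapped, and the change was 2.77 ± 0.65 (adjusted p = 0.0227). Neither was called without plate 3 (Nqo1 2.05, adjusted p = 0.452; Slc7a11 2.13, 0.576) or without plate 5 (2.49, 0.227; 2.74, 0.252). Without plate 1 both were called (Nqo1 2.81, adjusted p = 8.90e-05; Slc7a11 3.13, 5.23e-04), as was Gclc (1.31 ± 0.27, 0.0061; with plate 1 0.96, 0.121), giving 3 of the 9 against 0.311% of all genes tested. Gclc was also called with plate as a block (0.98, adjusted p = 0.0189). Summed hepatocyte probes had medians of 40175, 26687 and 10383 CPM with ketoconazole 30 µM on days 1, 3 and 7, and of 53694, 46191 and 12992 CPM with vehicle; their part was not tested.

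The ketoconazole response of 2 of the 9 genes differed between day 7 and day 1, against 0.519% of 14824 genes tested that differed in that direction. For Nqo1 the day 7 response exceeded the day 1 response by 2.75 ± 0.67 (adjusted p = 0.0147). For Gclc the difference was 1.67 ± 0.44 (adjusted p = 0.0281); Gclc was lower than vehicle on day 1 and differed by 0.96 on day 7, which was not called. Without plate 1 both stayed past the threshold (Nqo1 2.88, adjusted p = 0.0204; Gclc 2.12, 0.00871). For phenobarbital at 10 mM all 9 differences between day 7 and day 1 were positive and none was called, against 0.115% of genes called in either direction; 5 passed unadjusted, the largest being Slc7a11 (2.90 ± 0.87, adjusted p = 0.172). Gclc was called with plate as a block (1.72, adjusted p = 0.00128) and without plate 1 (2.18, 0.0109).

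At 10 µM ketoconazole on day 7, 7 of the 9 genes passed an unadjusted p of 0.05, beside 1567 of all 13707 genes tested. None of the 9 was called by edgeR. Nqo1 had 125, 48.3, 36.5 and 62.4 CPM in those co-cultures and 162, 28.3, 64.5 and 51.0 CPM in those monocultures, with plate 1 highest in both. Slc7a11 had 111, 4.69, 4.41 and 3.23 CPM in the co-cultures and 25.4, 3.25, 2.78 and 4.96 CPM in the monocultures, and again plate 1 was highest. That plate 1 monoculture library was most like phenobarbital 10 mM (r = 0.685, against 0.0867 with its own label). The plate 1 co-culture library was most like ketoconazole 30 µM (0.332, against 0.171) and held 1355914 counts. Over all 24 comparisons at the lower doses of the 4 compounds, edgeR called none of 216 tests of these genes. Of these tests 22 had an unadjusted p under 0.05, and the lowest adjusted p was 0.0744. Of all genes tested, 1186 of 12504 were higher and 688 lower with gemfibrozil 100 µM on day 1. Each other lower-dose comparison called at most 17 genes higher and 2 lower. DESeq2 called 6 of the 216 tests: 5 with gemfibrozil 10 and 100 µM on day 3, in groups that include plate 9 and with no DESeq2 value without it, and 1 with ketoconazole 10 µM on day 7. The ketoconazole call includes the plate 1 libraries described above, and there is no DESeq2 value without them.

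**Figure D3:**
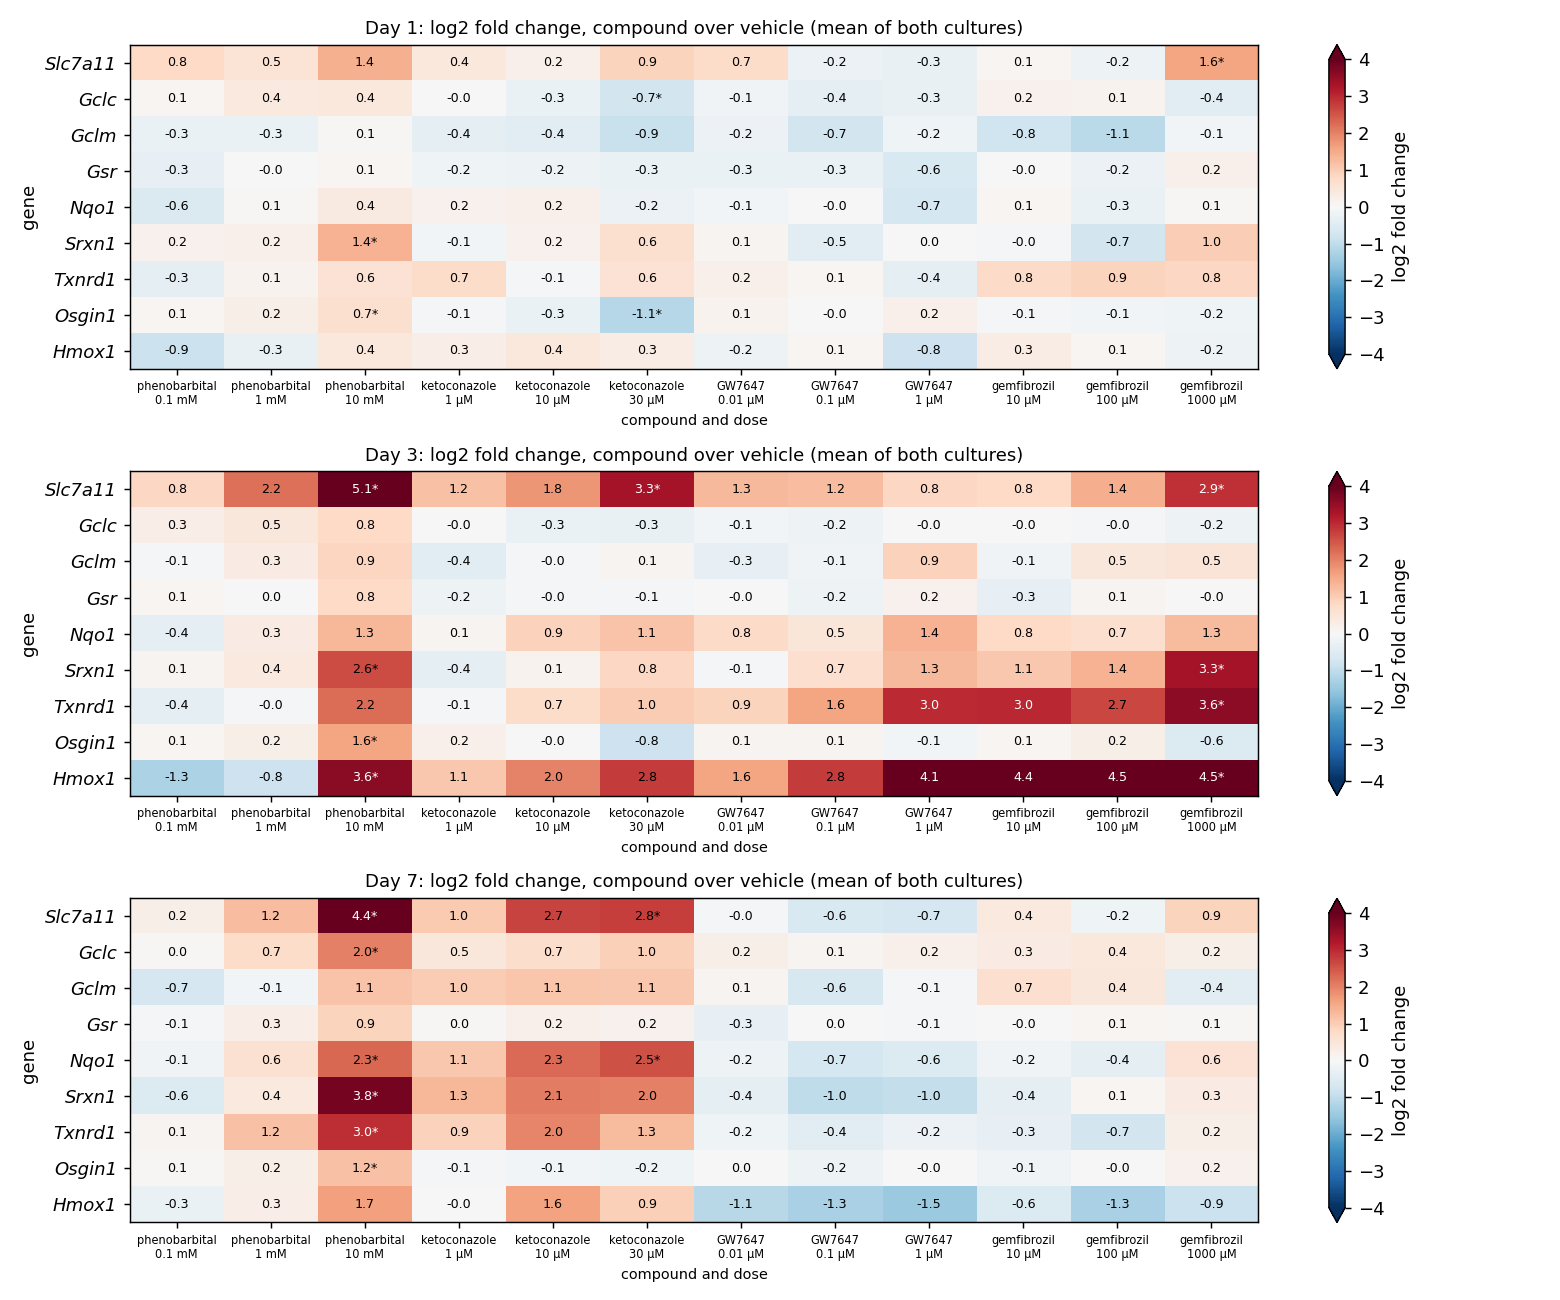
log2 fold change of compound over vehicle (colour and number, mean of both cultures) for the 9 genes (rows) and 12 compound doses (columns) on days 1, 3 and 7; an asterisk marks an adjusted p under 0.05. Asterisks stand only at the highest dose of phenobarbital, ketoconazole and gemfibrozil, and the largest value with one is 5.1 for Slc7a11 with phenobarbital 10 mM on day 3.

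Gemfibrozil, a fibrate, and GW7647, a potent synthetic agonist, both act on the receptor PPARα. At 1000 µM gemfibrozil, 1 of the 9 genes was higher on day 1, against 9.84% of all genes tested, and 4 on day 3, against 13.1%. On day 7 edgeR called none, against 0% of all genes tested called in either direction; none of the 9 passed unadjusted, and DESeq2 called 0. The day 1 gene was Slc7a11, at 13.1, 0.749, 11 and 1.79 CPM in treated co-cultures and 9.07, 3.51, 13.1 and 5.30 CPM in treated monocultures, with 0.905 to 4.26 CPM in vehicle libraries. The plates 1 and 5 were high and the groups overlapped; the change, 1.57 ± 0.54 (adjusted p = 0.0336), was lost without plate 1 (0.111) or plate 5 (0.372).

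The day 3 gemfibrozil calls depended in part on plate 9. Hmox1 had 4.61, 26.1, 11 and, on plate 9, 322 CPM in treated co-cultures, and 9.58, 1.5, 68.2, 15.1 and, on plate 9, 258 CPM in treated monocultures. Vehicle libraries had 0 to 6.96 CPM, so the plate 9 libraries lay far above all others. Txnrd1 had 12.8, 45.0, 30.4 and 293 CPM in the same co-cultures and 16.7, 5.5, 43.0, 25.2 and 524 CPM in the same monocultures, again with plate 9 last and highest, against 3.54 to 26.6 CPM with vehicle. With all plates Hmox1 changed by 4.51 ± 1.25 (adjusted p = 0.00873) and Txnrd1 by 3.57 ± 0.91 (0.00482), and without plate 9 neither was called (2.33, adjusted p = 0.0578; 1.48, 0.0874). Both were also lost without plate 5 (0.0696 each). Srxn1 and Slc7a11 were called with and without plate 9, giving 2 of the 9 against 4.29% of all genes tested. Srxn1 changed by 3.34 ± 0.68 (adjusted p = 5.16e-04) with plate 9 and 2.42 (0.00184) without it. Its libraries on the other plates had 35.8, 175 and 24.1 CPM in co-culture and 51.2, 20.5, 102 and 16.6 CPM in monoculture, with vehicle at 1.21 to 23.8 CPM. Slc7a11 changed by 2.91 ± 0.76 (adjusted p = 0.00605) and 2.93 (0.00975), and was lost without plate 5 (2.40, adjusted p = 0.118).

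Over all 9 libraries of plate 9, whatever their compound and dose, Hmox1 ran from 199 to 441 CPM (median 288), where the other 95 day 3 libraries had 0 to 86.3 CPM (median 7.27). Txnrd1 ran from 205 to 524 CPM (median 274) there and from 0 to 62.2 CPM (median 13.1) elsewhere, so both genes separated plate 9 completely. Gclc went the other way, with 24.1 to 64.0 CPM (median 44.0) on plate 9 and 45.8 to 278 CPM (median 109) on the other plates. Slc7a11 was not high there, at 0 to 5.45 CPM. On day 3 the hepatocyte probes summed to a median of 16347 CPM with gemfibrozil 1000 µM and 46191 CPM with vehicle, and their part was not tested.

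With GW7647 none of the 9 genes was called at any dose or day by edgeR's test. At 1 µM, 0.352%, 0.29% and 0.0219% of all genes tested were called in either direction on days 1, 3 and 7, and 2, 4 and 1 of the 9 genes passed an unadjusted p of 0.05. Of all genes tested, 806 of 12504, 2834 of 13439 and 325 of 13707 passed unadjusted on these days. On day 3, Hmox1 differed by 4.13 and Txnrd1 by 2.99 (adjusted p = 0.0727 for both), and without plate 9 by 1.39 (0.742) and 1.00 (0.736). At 1 µM DESeq2 called 3 of the 9 on day 3 with plate 9 included (Hmox1, Txnrd1 and Nqo1) and 0 on days 1 and 7. Hmox1 had 288 CPM in the plate 9 co-culture and 6.14, 0, 3.42 and 14.0 CPM in the other co-cultures, and in monocultures 199 CPM on plate 9 and 0, 10.5 and 34.5 CPM on the others.

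**Figure D4:**
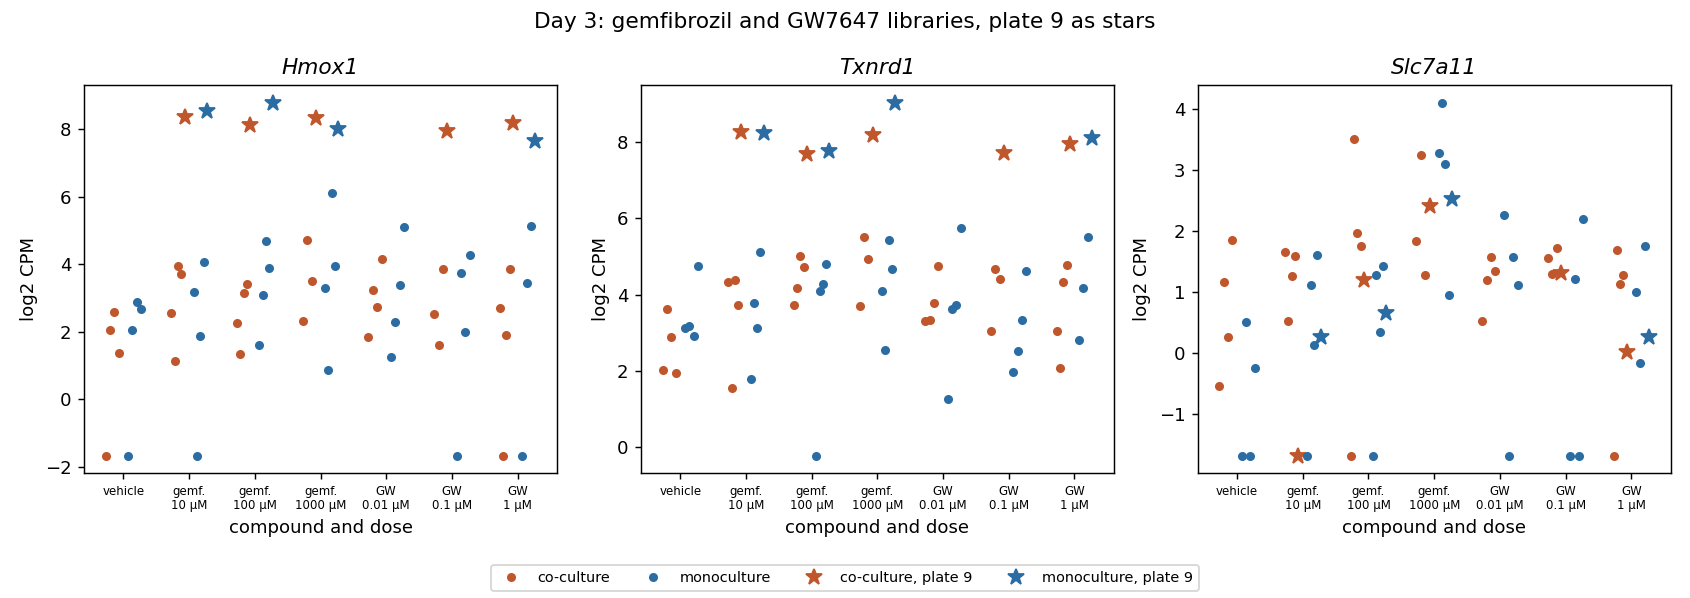
log2 CPM (y axes; libraries at 0 lie at the lowest value) of Hmox1, Txnrd1 and Slc7a11 on day 3 in vehicle, gemfibrozil and GW7647 (GW) libraries by dose in µM; points are libraries and stars those of plate 9. Stars lie above all points for Hmox1 (199 CPM or more) and Txnrd1 (205 CPM or more), and among the points for Slc7a11.

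Between co-culture and monoculture, averaged over the 13 conditions of a day, neither edgeR nor DESeq2 called any of the 9 genes (0 each), with 0.288%, 0.126% and 0.117% of all genes tested called in either direction on days 1, 3 and 7. On day 1 all 9 were lower in co-culture, with a median difference of -0.27, and 4 passed an unadjusted p of 0.05, among them Gclc (-0.28) and Gsr (-0.27). Of all genes tested in that comparison, 953 of 12504 passed unadjusted. Among vehicle libraries alone 5 of the 9 had a positive difference on day 1, with a median of 0.04 and none at an unadjusted p under 0.05. Gsr was called without plate 3 (-0.32, adjusted p = 0.0464). None passed unadjusted on days 3 and 7. The response to the highest dose of each compound was not called as different between the cultures for any of the 9 genes on any day, with 1 test at an unadjusted p under 0.05 over the 4 compounds and 3 days. Of all genes tested, these comparisons called only 3 of 13707, for ketoconazole 30 µM on day 7, and none elsewhere.

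Over the 78 groups, the genes had different highest and lowest conditions. Slc7a11 was highest in day 7 co-cultures with phenobarbital 10 mM (63.7 ± 56.3 CPM; SD, n = 4), followed by the same dose in monoculture (43.8 ± 38.9 CPM), and these neighbours do not differ beyond their spread. Its lowest group was day 3 vehicle monocultures (0.411 ± 0.532 CPM). Gclc was highest in day 7 monocultures with phenobarbital 10 mM (358 ± 115 CPM) and lowest in day 7 co-cultures with 0.1 mM (70.1 ± 19.1 CPM). Nqo1 was highest in day 7 monocultures with ketoconazole 30 µM (103 ± 64.9 CPM), then with 10 µM (76.4 ± 59.0 CPM), within that spread. Osgin1 was highest in day 3 monocultures with phenobarbital 10 mM (1033 ± 512 CPM) and lowest in day 7 co-cultures with GW7647 0.1 µM (119 ± 56.0 CPM). Gsr was highest in day 1 monocultures with phenobarbital 1 mM and lowest in day 3 monocultures with gemfibrozil 10 µM (11.8 ± 7.48 CPM; n = 5). That lowest group includes plate 9, where Gsr had a median of 11.6 CPM, against 21.9 CPM in the other day 3 libraries. Gclm was highest in day 3 monocultures with phenobarbital 10 mM (32.3 ± 8.13 CPM; n = 3). The highest groups of Srxn1, Txnrd1 and Hmox1 were day 3 gemfibrozil groups that include plate 9.

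Pairs of the 9 genes varied together to different degrees. Over the 78 group means, Pearson's r of log2 CPM ran from 0.084 for Hmox1 with Osgin1 to 0.818 for Hmox1 with Txnrd1, with a median of 0.44. Srxn1 and Slc7a11 had r = 0.798, and 0.886 over the 52 groups of days 1 and 7, which hold no plate 9 library. The groups share plates and days, and the values are a description. Among 6941 probes with a mean of at least 10 CPM, those other than the 9 whose profiles were most like the mean standardised profile of the 9 were Gsta2 (r = 0.896), Odc1 (0.853), Amd1 (0.832), Gsta50.81 (0.831) and Ide (0.822).

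Regulators of NRF2 were called in both directions. Of 10 such genes 9 had a probe (Nfe2l2, Keap1, Bach1, Nfe2l1, Mafg, Maff, Mafk, Sqstm1 and Cul3), and 8 were tested on day 7. With phenobarbital 10 mM on day 7, Sqstm1, which encodes an autophagy receptor that binds KEAP1, rose by 1.66 ± 0.36 (adjusted p = 0.00162) and Bach1 by 1.75 ± 0.45 (0.00877), while Nfe2l1 fell by 0.59 ± 0.16 (0.0138). Nfe2l2 itself differed by 0.23 (adjusted p = 0.636), Keap1 by -0.27 (0.627), Cul3 by 0.69 (0.0691), Mafg by 0.44 (0.504) and Mafk by -0.12 (0.873). On day 3 Sqstm1 (2.19 ± 0.43, adjusted p = 1.63e-04) and Bach1 (2.19 ± 0.49, 0.00109) rose, and Nfe2l1 (-1.39 ± 0.33, 0.00225) and Nfe2l2 (-0.78 ± 0.24, 0.0225) fell. In vehicle on day 7 against day 1, Sqstm1 fell (-1.81 ± 0.34, adjusted p = 1.92e-04) and Nfe2l2 differed by -0.58 (0.0523). With ketoconazole 30 µM Nfe2l2 fell on day 1 (-0.67 ± 0.23, adjusted p = 0.0288) and no regulator was called on day 7. With gemfibrozil 1000 µM on day 1, Bach1 (1.62), Mafk (1.25) and Mafg (1.34) rose.

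Other lists were read with phenobarbital 10 mM on day 7, where the median of all genes tested was 0.01, 2.81% of them were higher and 3.28% lower. Of 18 further NRF2 targets tested, 5 rose and 1 fell, with a median of 0.69. The examples were Ugdh, which makes UDP-glucuronic acid (1.91 ± 0.40, adjusted p = 0.00115), the export pump Abcc4 (3.03 ± 0.81, 0.0137) and Ptgr1, prostaglandin reductase (1.32 ± 0.36, 0.0153). Of 12 probes of the glutathione cycle, 1 rose and 1 fell, with a median of -0.54; these were Chac1, which degrades glutathione (2.59 ± 0.58, 0.00216), and Gpx2, a glutathione peroxidase (-1.76 ± 0.50, 0.0212). Among 11 thioredoxin and peroxiredoxin genes Txnl1 rose (0.65, 0.0454), and among 7 genes of NADPH supply Tkt, transketolase, rose (0.97, 0.0498). None of 7 haem and iron genes or of 4 catalase and dismutase genes was called. Of 17 probes for targets of ATF4, the amino-acid and stress regulator that also acts on Slc7a11, 5 rose and none fell, with a median of 1.05, including Ddit3 (4.57 ± 0.74, adjusted p = 2.00e-05) and Trib3 (3.35 ± 0.62, 2.30e-04).

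For ketoconazole 30 µM on day 7, beside a median of -0.12 for all genes tested and 0.372% of them higher, 2 of the 18 further NRF2 targets rose, Ptgr1 (1.53 ± 0.36, adjusted p = 0.0231) and the glutathione transferase Gstp1 (1.92 ± 0.48, 0.0349), and none fell. Ggt1, which cleaves extracellular glutathione, rose by 1.49 ± 0.37 (adjusted p = 0.0365), while no ATF4 target was called. On day 1, 10 of 17 ATF4 probes were higher with ketoconazole 30 µM, against 8.13% of all genes tested, 9 with phenobarbital 10 mM, against 9.26%, and 10 with gemfibrozil 1000 µM, against 9.84%. In vehicle cells on day 7 against day 1, 27.3% of all genes tested were higher and 16.5% lower, and 4 of the 18 further NRF2 targets rose and 7 fell, among them Ptgr1 (-2.13), Ephx1, microsomal epoxide hydrolase (-1.89), and the zinc transporter Slc39a4 (-1.67). The summed mesenchymal probes, given above, were higher on day 7 as well, and their part was not tested. Of 4 catalase and dismutase genes 3 fell, among them catalase, Cat (-1.24), and manganese dismutase, Sod2 (-1.86); the other, Sod3, averaged only 0.0177 CPM on day 1 and is not read as a change.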

How the data were processed

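TempO-Seq counts of rat hepatocyte cultures were used as the authors deposited them, as whole-number counts per probe for every library; per the labels, the assay, sequencing and count table were made by BioSpyder, and the submitters' processing notes name Bowtie. Its build and settings were not stated in these sources. From these counts, CPM were computed with TMM scaling in edgeR 4.0.16 (R 4.3.3). Probes were kept with filterByExpr at a minimum count of 10, each day was fitted over all its groups and vehicle over its days, and quasi-likelihood tests were adjusted by Benjamini-Hochberg over all genes tested. Log2 CPM in figures used a prior count of 2. Steps were tested on simulated data. Alternatives were DESeq2 1.42.0, its size factors, no filter, a plate block, leaving out each plate, all libraries in one fit and leaving out 3 libraries with conflicting dose labels. Libraries of one plate deviated together (mean residual correlation 0.285, 0.234 and 0.309 on days 1, 3 and 7), while the labels do not say what a plate shares. Members and lists were chosen with earlier results of these data known. All 9 genes were named in each comparison; of each list, up to 3 called genes with the smallest adjusted p were named, and all measured NRF2 regulators. The genes most alike were the 5 with the highest correlation, leaving out the 9.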

Additional observations from a re-analysis of the deposited data

Results flagged for a closer look

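Vehicle and highest-dose groups with 4 or 5 libraries gave 243 pairs of gene and group, and lower doses were not screened. Of these pairs, 12 had a library far from the others by Dixon's test, which chance alone gives in about 1 of 20 groups. High values were 102 CPM of Slc7a11 on plate 7 of day 7 monocultures with phenobarbital 10 mM (others 22.6 to 27.9), 692 CPM of Osgin1 on plate 5 of day 1 co-cultures with phenobarbital 10 mM (others 387 to 408), and 26.6 CPM of Txnrd1 on plate 7 of day 3 vehicle monocultures (others 7.18 to 8.71). The low values of 0 were on plate 1 of day 7 monocultures. These were Gclm (others 19.9 to 22.3 CPM) and Gsr (others 18.4 to 31.0 CPM) with ketoconazole 30 µM, in the library of 412414 counts, and Nqo1 with GW7647 1 µM (others 9.61 to 14.0 CPM). Gclc had 50.9 CPM on plate 7 of day 7 monocultures with gemfibrozil 1000 µM (others 122 to 133). Nqo1 with gemfibrozil 1000 µM was low on plate 1 in co-cultures of day 1 (11.5 CPM, others 19.5 to 21.3) and of day 3 (8.41 CPM, others 24.1 to 29.5). Gsr had 23.5 CPM on plate 3 of day 1 co-cultures with GW7647 1 µM (others 34.3 to 35.6) and 10.4 CPM on plate 5 of day 7 vehicle monocultures (others 20.7 to 23.4). Hmox1 had 4.24 CPM on plate 3 of day 7 vehicle monocultures (others 12.9 to 13.5).

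The response to ketoconazole 30 µM differed between day 7 and day 1, by edgeR's test of that difference, for Gclc (1.67 on the log2 scale, adjusted p = 0.0281) and Nqo1 (2.75, adjusted p = 0.0147).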

How the results depend on the processing

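No called change of the 9 genes reversed its direction under the alternatives tried. Counts of called genes that moved by over 1.5 times are given first. DESeq2's Wald test gave 7 genes lower on day 3 than day 1 in place of 4, and 3 higher with GW7647 1 µM on day 3 in place of 0, as did DESeq2 size factors and the fit of all libraries (3 each). The fit of all libraries gave 0 in place of 2 higher on day 7 than day 3, 0 in place of 2 with phenobarbital 10 mM on day 1, 1 in place of 2 lower with ketoconazole 30 µM on day 1, 2 in place of 1 higher with it on day 3, and 0 in place of 1 with gemfibrozil 1000 µM on day 1. Without the filter on low counts these were 1 on day 7 against day 3, 1 with phenobarbital on day 1 and 0 with gemfibrozil on day 1. With the replicate block (plate), 4 genes were lower on day 7 than day 3 in place of 1, 7 were higher with phenobarbital on day 3 (7 also without plate 9), 3 were higher and 1 lower with ketoconazole on day 3 (3 and 1 also without plate 9), 2 were higher with gemfibrozil on day 1, and 1 had a larger phenobarbital response on day 7 than on day 1 (1 also without plate 1). The settings that combine the block with leaving out plate 9, and that leave out plate 1 for differences between days, were chosen after seeing the data. Leaving out 1 plate at a time gave 2 to 4 lower on day 3 than day 1, 1 to 2 higher and 1 to 2 lower on day 7 than day 3, 0 to 2, 2 to 6 and 2 to 7 higher with phenobarbital on days 1, 3 and 7, 1 to 2 lower with ketoconazole on day 1, 0 to 2 and 0 to 3 higher with it on days 3 and 7, 0 to 2 and 1 to 4 higher with gemfibrozil on days 1 and 3, 0 to 1 lower with it on day 3, and 0 to 1 lower in co-culture on day 1. Smaller moves were 8 in place of 6 higher with phenobarbital on day 7 by DESeq2 and with the block, 5 there with DESeq2 size factors and without the filter, 3 in place of 2 with ketoconazole on day 7 by DESeq2 and with the block, 5 in place of 4 lower on day 3 than day 1 with the block, 3 in place of 2 higher on day 7 than day 3 by DESeq2 and with the block, and 4 to 6 in place of 6 lower on day 7 than day 1 without 1 plate (5 with all libraries in the fit). The cause of these moves was not tested. For alternative settings, shares of all genes called are given above only for leaving out plate 9 or plate 1. For differences between days the other plates were not left out. In libraries of low depth, low genes such as Slc7a11 are limited by counting error.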
